A study of Mus musculus with 18 samples.

Results

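The Zfp genes of the mouse were described here in the transcriptomes of 3 stages of the B cell lineage, with and without Dnmt3a and Dnmt3b, the enzymes of de novo DNA methylation. The members were chosen by symbol, Zfp followed by a number, and by measured level, an FPKM (fragments scaled to exon length and to the size of the library) above 1 in at least 3 of the 18 libraries. Such a symbol was carried by 327 of the 21761 genes deposited, and 258 of these met the level. Since the level was read from the same libraries, the members' levels, their counts and their medians below are descriptions of the genes that met it. The members with the lowest third-highest FPKM were Zfp28, at 1.10, Zfp384, at 1.15, and Zfp473, at 1.15. Just outside were Zfp516, at 0.970, Zfp458, at 0.965, and Zfp286, at 0.941. Of the 69 Zfp genes outside, 19 were listed at 0 in every library.

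Most Zfp genes encode proteins with tandem C2H2 zinc fingers, loops of the chain folded around a zinc ion that each contact a few bases of DNA. Many also carry a KRAB domain, which recruits the corepressor TRIM28 (KAP1) and through it the histone H3 lysine 9 methyltransferase SETDB1 and heterochromatin protein 1, so that the bound locus is silenced. These KRAB zinc finger proteins, the largest family of transcription factors in mammals, arose by local duplication and are known for repression of retrotransposons and for keeping DNA methylation at imprinted loci. Other members without the domain bind RNA, activate transcription or act outside the nucleus.

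RNA was measured in 6 groups of 3 libraries, each library from 5000 sorted cells. Every mouse was fl/fl for Dnmt3a and for Dnmt3b, on a mixed background and 8 to 12 weeks old at the start. The Dnmt3-deficient mice carried in addition 1 Cre allele, and their Dnmt3-sufficient littermates none. Since the control mice lacked the Cre allele, its effects and those of the lost enzymes cannot be told apart. Naive B cells (nB) came from lymph nodes of mice that were not immunized and were B220+ GL7- Fas-. The other cell types were sorted 30 days after immunization with phycoerythrin (PE) in complete Freund's adjuvant. PE-binding cells positive for B220, GL7 and Fas were taken as germinal center B cells (GCB), with 2 mice pooled per sample, and CD138+ bone marrow cells as plasma cells (BMPC). Cells stained for CD11b, CD11c, CD90.2 or Ly6-G were gated out. Each nB and GCB group held 2 female libraries and 1 male library, and each BMPC group 1 female and 2 male. Tissue and sex balance set BMPC apart from nB and GCB, and immunization set nB apart from the other cell types. Effects of these cannot be told apart from those of cell type.

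BMPC libraries held 1355231 to 3803197 reads counted on genes, fewer than GCB (7644544 to 8903872) and nB libraries (6692516 to 8987922). Markers of the labelled cells were present in every library of their own group (6 of 6 for nB and GCB, 7 of 7 for BMPC). The CD138+ libraries also held markers of other bone marrow cells, among them cell types that the gate on CD90.2, Ly6-G and CD11b was set to remove. Their summed FPKM ranged from 149 to 2194 for 4 erythroid markers, 308 to 627 for 5 early B cell markers, 9.37 to 582 for 6 neutrophil markers, 53.5 to 198 for 5 T cell markers and 0 to 82.5 for 5 macrophage markers, with C1qa listed at 0 in every BMPC library. The nB libraries held T cell markers too, at 25.3 to 71.4 FPKM. Erythroid markers in nB were at 22.5 to 218 FPKM in Dnmt3-deficient and 0.468 to 1.42 FPKM in Dnmt3-sufficient libraries. Erythroid markers were lower in the Dnmt3-deficient BMPC libraries (149 to 797) than in the Dnmt3-sufficient ones (1160 to 2194). The sum over the 7 plasma cell markers was higher (33952 to 51504 against 18915 to 29493), but most of it was Jchain. Mzb1 and Tnfrsf17 were also higher without overlap, while Xbp1, Sdc1 and Prdm1 overlapped between genotypes. Irf4 went the other way, at 14.5, 0.315 and 27.9 FPKM against 37.3, 55.2 and 44.1 FPKM. The gene-level FPKM of Dnmt3a and Dnmt3b included exons outside the deleted part and did not check the deletion.

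Zfp genes were low on the whole. The mean of the 6 group means had a median of 4.13 FPKM over the members, with quartiles of 2.22 and 9.27, and exceeded 10 FPKM in 61 of them. In all 18 libraries only 21 members exceeded 1 FPKM. The 10 members with the largest means were Zfp207, Zfp36, Zfp706, Zfp932, Zfp825, Zfp386, Zfp637, Zfp639, Zfp330 and Zfp263. First among them was Zfp207, known as a spindle assembly and splicing factor, at a mean of 121 FPKM and 38.6 to 169 FPKM over the libraries. Zfp36, which encodes tristetraprolin, a protein that marks AU-rich mRNAs for decay, followed at 106 FPKM (29.0 to 160). Next came Zfp706, at 73.9 FPKM (40.5 to 91.6), and the KRAB gene Zfp932, at 52.2 FPKM (6.17 to 102). Of these 10, Zfp386 and Zfp637 each had a BMPC library with 0 reads, and Zfp639 one at 0.428 FPKM, although each exceeded 100 FPKM in another BMPC library.

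**Figure D1:**
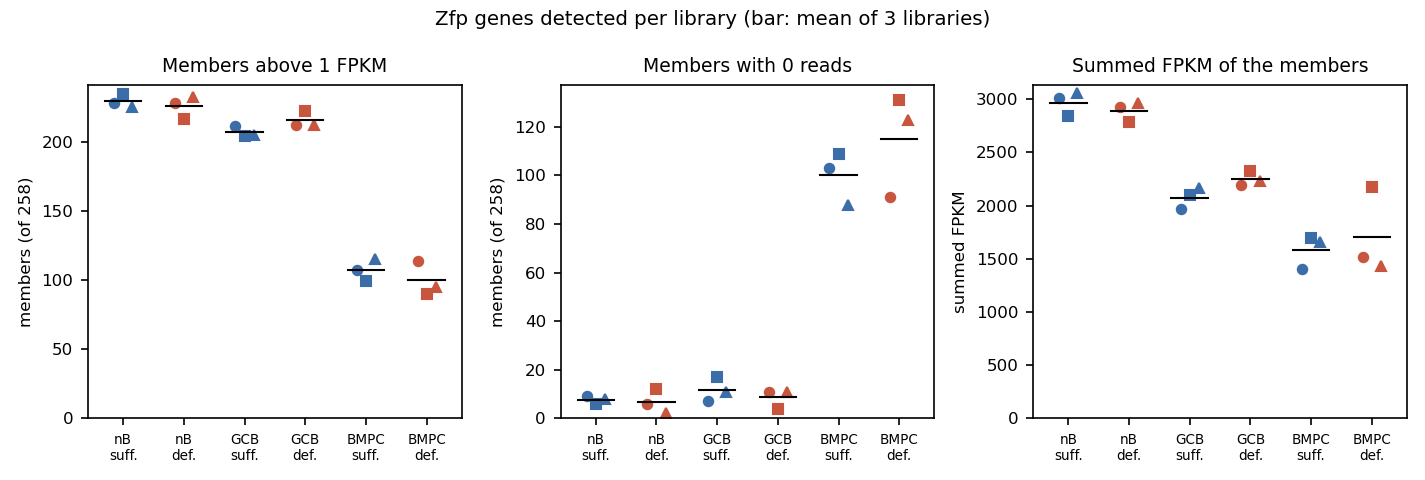
The number of the 258 Zfp members above 1 FPKM (left), the number with 0 reads (middle) and their summed FPKM (right) are plotted per library (blue, Dnmt3-sufficient, red, Dnmt3-deficient), with circles, squares and triangles for replicates 1, 2 and 3 and a bar at the group mean. The 6 BMPC libraries had 90 to 115 members above 1 FPKM, below every nB library (216 to 234) and every GCB library (204 to 222).

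Fewer members were detected in BMPC than in the other cell types. BMPC libraries had 90 to 115 members above 1 FPKM, as the plot of detection by library shows, against 204 to 222 for GCB and 216 to 234 for nB. Members with 0 reads numbered 88 to 131, against 4 to 17 and 2 to 12. In BMPC these were 34.1 to 50.8% of the members, beside 26.0 to 40.1% of the 11522 genes tested (those above 1 FPKM in at least 2 libraries), so that zeros were frequent in these shallower libraries beyond the Zfp genes. Summed over the members, BMPC gave 1400 to 2174 FPKM and GCB 1964 to 2328 FPKM, which overlapped, and nB 2787 to 3056 FPKM, which overlapped neither. A sample with fewer cells of a type that expresses a gene and one with less RNA per cell cannot be told apart in such bulk libraries.

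In at least 3 of the 6 libraries of each cell type, 106 members exceeded 1 FPKM. A further 114 did so in nB and GCB but not in BMPC, 16 in nB alone, 7 in GCB alone, 2 in nB and BMPC and 1 in BMPC alone, while 12 reached 3 libraries only across cell types. Values above 1 FPKM occurred in nB libraries alone for 3 members, Zfp831, Zfp2 and Zfp28. Zfp831 was at 4.13, 1.47 and 4.46 FPKM in nB of Dnmt3-sufficient mice, 4.43, 0.363 and 3.66 FPKM in nB of Dnmt3-deficient mice, and at most 0.470 FPKM in every GCB and BMPC library. Conversely, Zfp467 exceeded 1 FPKM in BMPC libraries alone. It was at 1.596, 3.42 and 0 FPKM in Dnmt3-sufficient BMPC and at 0.153, 0.554 and 8.84 FPKM in Dnmt3-deficient BMPC, a spread wider than its difference from nB, where it reached 0.971 FPKM.

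Replicates of BMPC scattered between high values and 0. A member with 0 reads in 1 library and over 10 FPKM in another library of the same group was seen 27 times in Dnmt3-sufficient and 33 times in Dnmt3-deficient BMPC, against 0 or 1 in each nB and GCB group. Among the genes tested the same pattern made up 10.8% and 13.0% in BMPC, beside 10.5% and 12.8% of the members. Of those with a library over 10 FPKM, which alone can show it, the shares were 33.3% and 39.8% of members and 21.2% and 26.3% of genes tested. Zfp386, for example, was at 0, 30.5 and 57.1 FPKM in Dnmt3-sufficient BMPC and at 21.0, 139 and 0 FPKM in Dnmt3-deficient BMPC. Calls between genotypes in BMPC are therefore given below with their 3 values per group. Calls from nB or GCB to BMPC are in part given as a range or as a log2 change alone, and the scatter behind these is not shown.

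To ask how the family differed between nB and GCB, log2(FPKM + 1) was fitted with limma over all 18 libraries, and a member passed at a Benjamini-Hochberg adjusted p of 0.05 or less over the 11522 genes with an absolute log2 change of at least 1. Few members passed. In Dnmt3-sufficient cells 2 were higher and 11 lower in GCB, beside 7.22% of the genes tested that were higher and 6.93% that were lower, and in Dnmt3-deficient cells 2 were higher and 6 lower, beside 6.31% and 6.61%. Both shares of members were below those of all genes in that fit. The median change of the members was -0.51 and -0.45 on the log2 scale in the respective genotypes, beside -0.11 and -0.13 for the genes tested. When only the 6 libraries compared were fitted, 41 and 22 members passed, of which 36 and 17 were lower in GCB, beside 23% and 22.2% of genes tested that passed in either direction.

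The members that passed in both genotypes with no overlap between cell types were Zfp382, which was higher in GCB, and Zfp318, Zfp263, Zfp661 and Zfp619, which were lower. Zfp318 encodes a nuclear protein known to be required in mature B cells for the long transcript from which IgD is made. In nB it was at 50.8, 25.1 and 27.4 FPKM (Dnmt3-sufficient) and 28.7, 20.8 and 22.6 FPKM (Dnmt3-deficient), and in GCB at 0.335, 0.266 and 0 FPKM and 0.143, 0.0886 and 0.122 FPKM. All nB libraries thus stood far above all GCB libraries. The log2 change was -4.82 (adjusted p = 8.21e-05, limma) in Dnmt3-sufficient and -4.47 (adjusted p = 0.000188) in Dnmt3-deficient cells, with an SE of 0.67, and the ratio of means was 172-fold and 204-fold. In BMPC Zfp318 was also low, at 0.0544, 7.76 and 0 FPKM and at 1.46, 0 and 0 FPKM.

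Zfp263 fell to a lesser degree. Its nB values were 48.8, 76.5 and 86.2 FPKM (Dnmt3-sufficient) and 70.7, 71.0 and 129 FPKM (Dnmt3-deficient), and its GCB values 15.3, 11.0 and 14.3 FPKM and 16.2, 44.4 and 11.8 FPKM. These ranges did not overlap, although replicate 2 of Dnmt3-deficient GCB came close. The log2 change was -2.27 and -2.02 (SE 0.55, adjusted p = 0.00837 and 0.0189), and the second was lost without nB Dnmt3-deficient replicate 3 or GCB Dnmt3-deficient replicate 1 or 3 (adjusted p up to 0.107).

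The KRAB gene Zfp382 moved the other way, at 3.34, 6.44 and 0.101 FPKM in Dnmt3-sufficient nB and 1.37, 2.40 and 6.20 FPKM in Dnmt3-deficient nB. In GCB it was at 22.2, 18.2 and 18.3 FPKM and at 15.0, 18.2 and 9.92 FPKM, above every nB library. Not 1 read was counted on it in any of the 6 BMPC libraries. The log2 change from nB to GCB was 2.64 (adjusted p = 0.00496) and 1.95 (adjusted p = 0.0346), with an SE of 0.59. In Dnmt3-deficient cells this call was lost under 8 of 14 alternatives, among them each fit without a GCB library or without nB replicate 1 or 2 (adjusted p up to 0.196). Zfp661 and Zfp619 were low genes (at most 6.64 FPKM in any library), with log2 changes of -1.53 and -2.15 for Zfp661 and of -1.73 and -1.66 for Zfp619 (adjusted p = 0.0279, 0.00332, 0.0312 and 0.0402). The Dnmt3-sufficient call of Zfp661 was lost without nB replicate 1, 2 or 3 or GCB replicate 1 or 3 (adjusted p up to 0.163), that of Zfp619 without nB replicate 2 or 3 or any GCB replicate (up to 0.121), and its Dnmt3-deficient call without nB replicate 1 or 3 or any GCB replicate (up to 0.182).

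**Figure D2:**
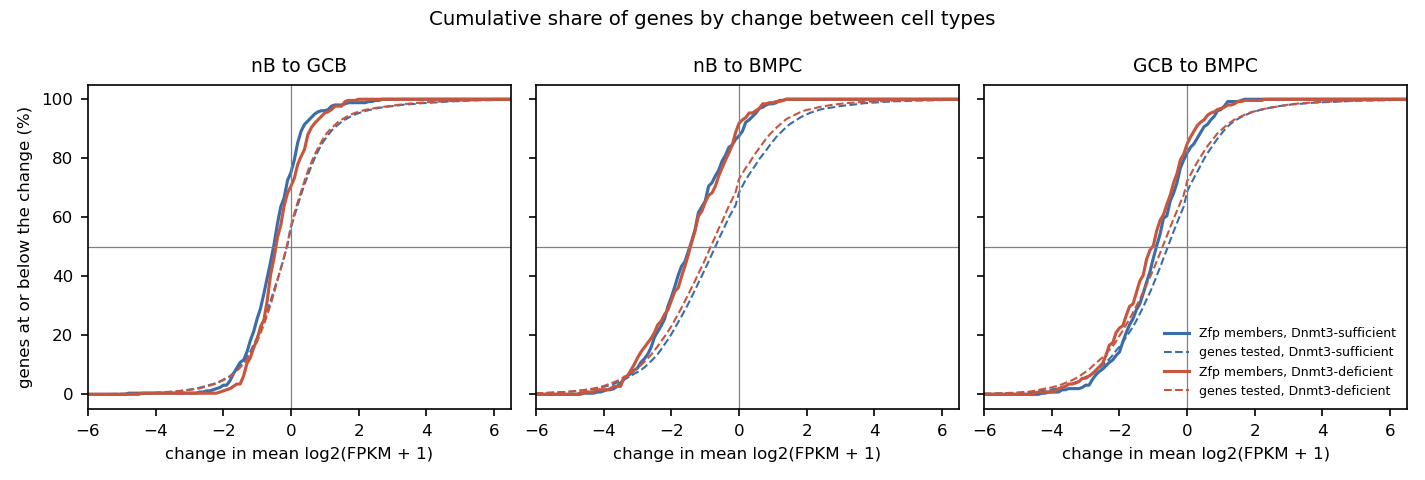
Each curve gives the percentage of genes (vertical axis) at or below a change in mean log2(FPKM + 1) (horizontal axis) for the 258 Zfp members (solid) and the 11522 genes tested (dashed), blue for Dnmt3-sufficient and red for Dnmt3-deficient cells. From nB to BMPC the members' curves cross 50% at -1.46 in both genotypes, left of the genes tested at -0.70 and -0.84.

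BMPC had lower levels of many members than nB and GCB and, in the fit over all 18 libraries, a higher level of none. From nB, 122 of 258 members (121 without Zfp472) were lower in Dnmt3-sufficient cells, beside 27.6% of genes tested, and 106 in Dnmt3-deficient cells, beside 30.6%. No member was higher (140 and 144 had an unadjusted p under 0.05 in either direction), beside 9.74% and 6.85% of genes tested. From GCB, 56 (55 without Zfp472) and 73 members were lower, beside 20.9% and 26.1%, and 0 higher (87 and 95 with an unadjusted p under 0.05), beside 6.67% and 6.14%. With voom on the recovered reads 1 member was higher from GCB in Dnmt3-sufficient cells, and when only the libraries compared were fitted 1 was higher from GCB in each genotype. Without BMPC Dnmt3-sufficient replicate 1, a single member was higher from nB in Dnmt3-sufficient cells, and without replicate 2 or 3 there were 2. The median change from nB was -1.46 in both genotypes, beside -0.70 and -0.84 for all genes tested, as the cumulative plot shows, and from GCB it was -0.91 and -1.05, beside -0.56 and -0.73.

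The choice of members and low reads both bear on these counts. Of the 258, 137 reached 1 FPKM in at least 3 nB or 3 GCB libraries without doing so in BMPC, and 59 to 81 members had at most 3 reads in every library of 1 of the groups compared. With such groups set at 3 reads per library, the medians from nB were -1.40 and -1.29, beside -0.58 and -0.67 for the genes tested. Among the 109 members above 1 FPKM in at least 3 BMPC libraries, 36 and 31 were lower than in nB and 0 higher. Over all genes tested, 27.6% and 30.6% were lower. The share of the 109 was above the former in Dnmt3-sufficient and below the latter in Dnmt3-deficient cells. Their median change was -1.22 and -1.25, beside -0.70 and -0.84 for all genes tested. These 109 were picked for being present in BMPC. The genes tested were not, so whether the members differ from genes equally present in BMPC was not tested.

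In both genotypes 74 members passed as lower in BMPC than in nB, and in 61 of them the libraries of the cell types did not overlap. The 74 were 28.7% of the members, beside 19% of genes tested. The lack of overlap was not counted over the genes tested, so the 61 have no share to stand beside. Among those with the largest mean changes was Zfp58, a KRAB gene of chromosome 13. It was at 16.1, 8.55 and 15.9 FPKM in Dnmt3-sufficient nB, 11.1, 13.9 and 16.9 FPKM in Dnmt3-deficient nB, and at 0, 0.576 and 0 FPKM and 0.224, 0 and 0 FPKM in BMPC. Its GCB values, 2.77 to 11.3 FPKM, overlapped those of nB and lay above those of BMPC. The log2 changes from nB were -3.59 (adjusted p = 1.47e-05) and -3.79 (adjusted p = 1.01e-05), SE 0.46, the latter a fold of means of at least 21.3-fold with the Dnmt3-deficient BMPC libraries set at 3 reads each.

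Zfp143, an activator at the promoters of small nuclear RNA genes and of many mRNA genes, was at 48.4, 66.1 and 40.1 FPKM and 45.0, 49.5 and 35.4 FPKM in nB, and near that in GCB (30.7 to 43.0 FPKM). BMPC libraries gave 12.7, 12.2 and 0 FPKM (Dnmt3-sufficient) and 0.609, 0 and 1.76 FPKM (Dnmt3-deficient). It was lower than in nB by 3.19 (adjusted p = 0.00253) and 4.74 (adjusted p = 0.000104) on the log2 scale, and the first call was lost when only the libraries compared were fitted (adjusted p = 0.0921). Zfp592 was at 6.15 to 20.3 FPKM in nB, 5.05 to 10.2 FPKM in GCB and 0 to 1.72 FPKM in BMPC, with log2 changes from nB of -3.44 and -3.36 (adjusted p = 4.58e-05 and 6.59e-05). The other members named by the same rule, Zfp85, Zfp948, Zfp715 and Zfp961, had log2 changes from nB between -2.68 and -4.21 in either genotype, and the Dnmt3-deficient calls of Zfp85 and Zfp961 were lost when only the libraries compared were fitted (adjusted p = 0.0917 and 0.1003). Zfp85 reached 14.1 FPKM and Zfp961 12.9 FPKM in 1 Dnmt3-deficient BMPC library each while the other 2 libraries were at 0.

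**Figure D3:**
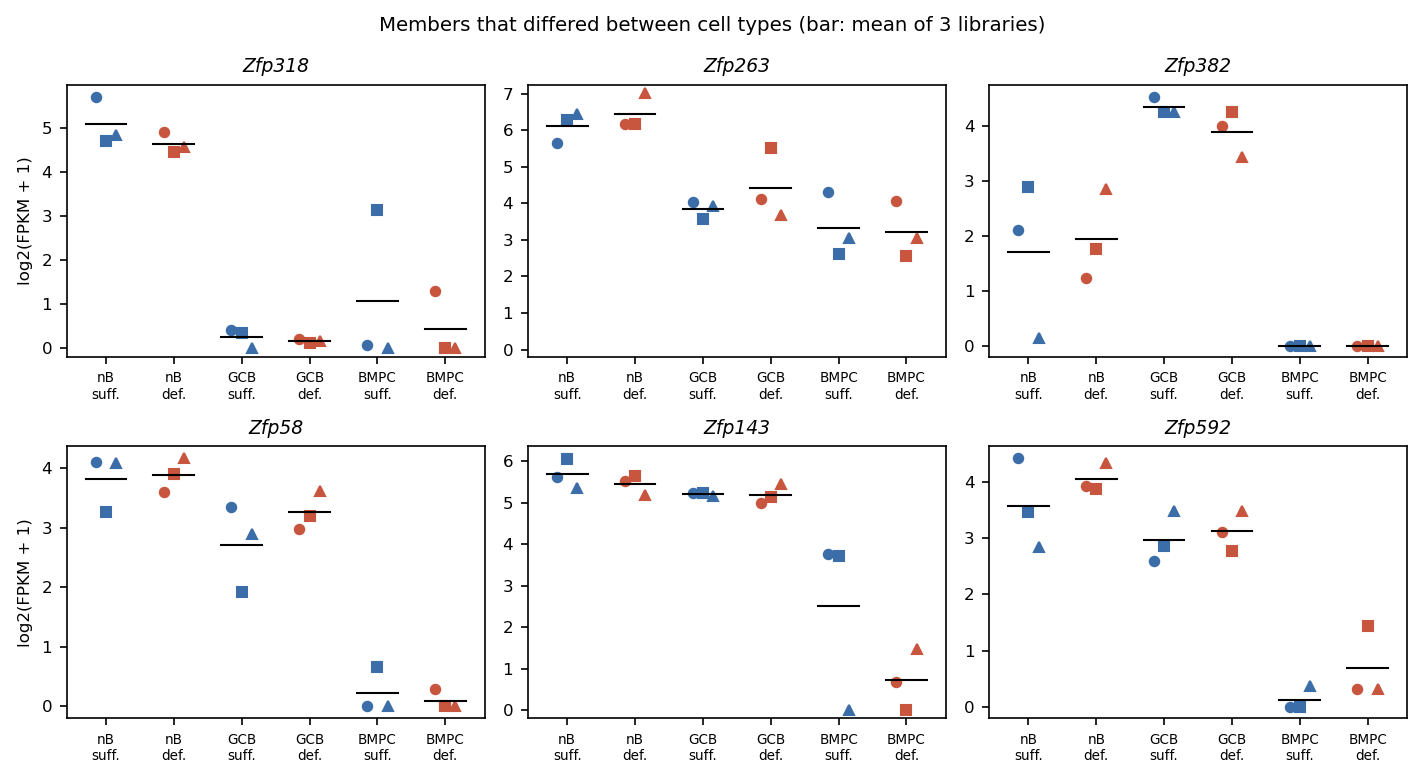
Levels of 6 members are plotted per library as log2(FPKM + 1), by cell type and genotype (blue, Dnmt3-sufficient, red, Dnmt3-deficient), with circles, squares and triangles for replicates 1, 2 and 3 and a bar at the group mean. Zfp318 was highest in nB, Zfp382 highest in GCB and without reads in BMPC, and Zfp58, Zfp143 and Zfp592 lowest in BMPC.

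From GCB to BMPC 39 members were lower in both genotypes, 35 of them with no overlap. The 39 were 15.1% of the members, near the 14.4% of genes tested, and for the 35 no such share was counted. Zfp382 and Zfp61 had 0 reads in all 6 BMPC libraries. In GCB Zfp61 was at 10.3, 20.2 and 8.66 FPKM and at 5.93, 13.4 and 14.8 FPKM, so that the fold of means was at least 30.8-fold and 14.9-fold (3 reads per BMPC library). Its log2 changes were -3.73 (adjusted p = 7.16e-05) and -3.54 (adjusted p = 0.000104). Zfp710 was at 9.84 to 19.2 FPKM in GCB and 0 to 3.82 FPKM in BMPC, and Zfp94 at 4.64 to 24.1 FPKM in GCB and 0 to 2.57 FPKM in BMPC, with 5 of 6 BMPC libraries at 0.

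Members with and without a KRAB domain were counted apart. A KRAB sequence pattern was found in the reference protein of 144 of the 253 members that had one, and 109 lacked it. The pattern misses variant boxes. From nB to BMPC 66 and 64 of the KRAB genes were lower (45.8% and 44.4%), and 53 and 39 of the others (48.6% and 35.8%), with 0 higher in either set. Of the genes tested 27.6% and 30.6% were lower and 9.74% and 6.85% higher. The 66 include the preselected Zfp472. The median changes were -1.43 and -1.54 for KRAB genes and -1.49 and -1.30 for the others. KRAB genes carried more fingers, a median of 12 against 7, and lay more often in clusters of at least 3 Zfp genes with gaps under 500 kb, 109 of 144 against 41 of 109. The proteins ranged up to 36 C2H2 matches, and 5 members had none, among them Zfp36 with 2 CCCH fingers.

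Of 5 KRAB repressors with described targets that were members (Zfp445, Zfp568, Zfp708, Zfp809 and Zfp932), 3 and 1 were lower in BMPC than in nB. For this list and those that follow, the shares over all members were 47.3% and 41.1%, and over the genes tested 27.6% and 30.6%. Zfp445, a keeper of methylation at imprinted loci, was at 28.8, 23.4 and 29.0 FPKM in Dnmt3-sufficient nB and 6.11, 3.82 and 0.668 FPKM in Dnmt3-sufficient BMPC, without overlap (log2 change -2.86, adjusted p = 0.000414). In Dnmt3-deficient BMPC it was at 10.6, 3.82 and 12.3 FPKM and did not pass, and neither did its difference between genotypes in BMPC. Zfp708 passed in both genotypes, with log2 changes of -1.76 and -2.65 (adjusted p = 0.0407 and 0.00429). Zfp809, which silences proviruses through their primer binding site, was at 14.5 to 43.7 FPKM in nB and 0.942 to 33.1 FPKM in BMPC and passed in neither.

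Among 12 members with roles in RNA, protein turnover or the ribosome, 8 and 5 (66.7% and 41.7%) were lower in BMPC than in nB and 0 higher, the latter share near the 41.1% of all members. Zfp638, an RNA-binding nuclear protein, was at 36.9, 29.5 and 25.0 FPKM in Dnmt3-sufficient nB and 4.53, 8.36 and 2.50 FPKM in Dnmt3-sufficient BMPC (log2 change -2.46, adjusted p = 0.00266), and changed by -3.13 (adjusted p = 0.000426) in Dnmt3-deficient cells. Zfp346, which binds double-stranded RNA, was at 4.04 to 12.7 FPKM in nB and at 0.168, 0 and 0 FPKM in Dnmt3-deficient BMPC (log2 change -3.11, adjusted p = 0.000892). Zfp598, a ubiquitin ligase that senses collided ribosomes, passed in Dnmt3-sufficient cells alone (-2.45, adjusted p = 0.00737), and the difference between genotypes did not pass. Zfp207 was at 94.3 to 138 FPKM in nB, 141 to 169 FPKM in GCB and 38.6 to 146 FPKM in BMPC and passed in no comparison of cell types.

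General regulators of transcription gave 8 and 4 lower of 14 from nB to BMPC (57.1% and 28.6%, the latter near the 30.6% of genes tested), with Zfp143, Zfp592 and Zfp687 in both genotypes. Of 5 members with known roles in lymphocytes (Zfp36, Zfp91, Zfp318, Zfp335 and Zfp608), 4 in each genotype were lower in BMPC than in nB. Zfp36 was at 142, 105 and 160 FPKM in Dnmt3-sufficient nB and 87.7, 43.6 and 29.0 FPKM in Dnmt3-sufficient BMPC (log2 change -1.45, adjusted p = 0.00284). In Dnmt3-deficient BMPC it was at 85.7, 143 and 96.8 FPKM, within reach of nB (130 to 147 FPKM), and did not pass. The difference of Zfp36 between genotypes in BMPC did not pass either. Zfp608 was low throughout, 2.32 to 5.71 FPKM in nB and at most 0.628 FPKM in BMPC (log2 change -1.95 and -2.20, adjusted p = 0.000391 and 0.000149). These lists and those before them were drawn up with earlier results of the same libraries known.

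Genes listed for the corepressor pathway of KRAB proteins passed in both directions. Of 24 genes of the TRIM28 pathway that were tested, 4 and 5 were higher and 1 and 1 lower in GCB than in nB (Dnmt3-sufficient and Dnmt3-deficient). These were 16.7% and 20.8% higher, beside 7.22% and 6.31% of genes tested, and 4.17% lower in both, beside 6.93% and 6.61%. The highest rise was that of Uhrf1, which binds hemimethylated DNA at the replication fork, with log2 changes of 5.25 and 4.92, followed by the heterochromatin protein gene Cbx5 (1.89 and 2.56). Trim28 (0.70 and 0.14) and Setdb1 (0.07 and 0.70) did not pass from nB to GCB. From nB to BMPC, 11 and 12 were lower (45.8% and 50%, beside 27.6% and 30.6%) and 4 and 3 higher (16.7% and 12.5%, beside 9.74% and 6.85%), the latter including Cbx3 (log2 change 1.70 and 1.85, adjusted p = 4.56e-08 and 1.88e-08). Chd4, the helicase of the NuRD complex, was lower by 3.51 and 4.45 on the log2 scale. Trim28 itself was at 33.6, 11.3 and 16.4 FPKM (Dnmt3-sufficient) and 23.5, 14.7 and 24.5 FPKM (Dnmt3-deficient) in nB, and at 14.9, 8.60 and 8.33 FPKM and 3.40, 0 and 10.3 FPKM in BMPC. It passed from nB to BMPC in Dnmt3-deficient cells (log2 change -2.54, adjusted p = 0.00676), but neither the genotype difference in BMPC (adjusted p = 0.175) nor its difference from that in nB (adjusted p = 0.484) passed. Between genotypes in BMPC 1 of the 24 passed, beside 1.34% of genes tested that were higher and 2.65% that were lower. It was the histone H3 lysine 9 methyltransferase gene Suv39h1 (log2 change -2.30, adjusted p = 0.0107, limma). Suv39h1 was at 11.9, 12.4 and 6.90 FPKM in Dnmt3-sufficient and 1.59, 0 and 3.43 FPKM in Dnmt3-deficient BMPC. When only the BMPC libraries were fitted, no gene tested passed.

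Zfp472, the member singled out beforehand for its difference between genotypes in BMPC, is a KRAB gene on chromosome 17 (33102759 to 33116178, mm9, plus strand) whose reference protein of 534 residues held 12 C2H2 matches. It stood at rank 24 of the 258 members by the mean of its group means, 21.7 FPKM. Dnmt3-sufficient nB gave 10.2, 33.6 and 43.6 FPKM and Dnmt3-deficient nB 23.4, 38.3 and 32.0 FPKM. In GCB it was at 24.7, 16.8 and 13.1 FPKM (Dnmt3-sufficient) and at 20.2, 30.9 and 20.3 FPKM (Dnmt3-deficient), and in both cell types the genotypes overlapped. The genotype difference was 0.29 in nB and 0.39 in GCB on the log2 scale (SE 0.48, adjusted p = 1 in both), and that in nB turned to -0.31 without nB Dnmt3-sufficient replicate 1.

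BMPC differed. The Dnmt3-sufficient libraries held 1, 0 and 0 reads on Zfp472, or 0.195, 0 and 0 FPKM, and the Dnmt3-deficient libraries 98, 110 and 121 reads, or 25.7, 34.7 and 22.8 FPKM. All 3 Dnmt3-deficient values lay within the range of nB and GCB, while the Dnmt3-sufficient values were the lowest of the 18 libraries. Set at 3 reads per library, the Dnmt3-sufficient mean was at least 65.3-fold lower, and the fitted difference was 4.74 (SE 0.48). As the gene was singled out for this difference, it is given with no test, and so are the differences between its genotype changes, 4.45 against nB and 4.35 against GCB. At most 3 reads in every Dnmt3-sufficient and more than 3 in every Dnmt3-deficient BMPC library were counted for 1 of 258 members (0.388%). It was the preselected Zfp472, and the share was near the 0.330% of the genes tested. As Zfp472 was chosen for this difference, the count lends it no support. The opposite pattern was seen in 5 members (1.94%, beside 1.10% of the genes tested), Zfp692, Zfp608, Zfp865, Zfp607 and Zfp507. Neither pattern was seen in any member in nB or GCB.

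The start regions of Zfp472 and of 3 other members with a genotype difference in BMPC are shown because Dnmt3a and Dnmt3b methylate CpG dinucleotides, which are in capitals. Each runs 5′ to 3′ from 250 bases before to 50 after the start of the RefSeq gene (GRCm38.p6). They lie at chr17:32965581-32965880 (plus strand) for Zfp472, chr9:19621841-19622140 (plus) for Zfp317, chr7:7121427-7121726 (minus) for Zfp954 and chr2:164911701-164912000 (minus) for Zfp335.
Zfp472: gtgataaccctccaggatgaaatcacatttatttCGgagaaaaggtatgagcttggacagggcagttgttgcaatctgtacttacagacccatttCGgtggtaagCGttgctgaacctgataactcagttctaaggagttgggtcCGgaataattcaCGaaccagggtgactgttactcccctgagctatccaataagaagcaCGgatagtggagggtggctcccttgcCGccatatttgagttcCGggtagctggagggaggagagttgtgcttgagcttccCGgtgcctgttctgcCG
Zfp317: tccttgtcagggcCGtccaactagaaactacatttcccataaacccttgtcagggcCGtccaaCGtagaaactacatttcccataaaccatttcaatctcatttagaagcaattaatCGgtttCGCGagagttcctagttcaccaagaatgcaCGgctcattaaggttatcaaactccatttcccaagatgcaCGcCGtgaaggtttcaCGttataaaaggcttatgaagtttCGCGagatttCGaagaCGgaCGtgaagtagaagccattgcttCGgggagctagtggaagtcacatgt
Zfp954: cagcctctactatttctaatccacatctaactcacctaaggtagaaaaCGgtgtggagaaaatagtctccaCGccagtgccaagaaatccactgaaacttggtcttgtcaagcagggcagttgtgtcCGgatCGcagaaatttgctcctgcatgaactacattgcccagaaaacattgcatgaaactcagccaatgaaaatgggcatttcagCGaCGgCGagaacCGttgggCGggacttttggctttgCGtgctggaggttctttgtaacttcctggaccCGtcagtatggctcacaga
Zfp335: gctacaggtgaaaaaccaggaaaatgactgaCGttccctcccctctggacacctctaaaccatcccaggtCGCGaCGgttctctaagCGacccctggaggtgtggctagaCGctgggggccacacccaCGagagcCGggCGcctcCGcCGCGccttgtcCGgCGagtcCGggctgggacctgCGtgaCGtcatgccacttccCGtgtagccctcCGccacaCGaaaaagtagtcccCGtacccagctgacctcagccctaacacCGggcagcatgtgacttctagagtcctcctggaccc
They held 10, 16, 11 and 22 CpG. A start region was matched for 217 of 258 members (84.1%), with a median of 15 CpG (quartiles 9 and 21) and 10 or more in 72.8%. Among genes tested, 79.4% had one, with a median of 21 and 10 or more in 81.4%, but with under 80% matched this comparison is void. CG reads the same on both strands. Methylation was not analysed here, and the letters say nothing of it.

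**Figure D4:**
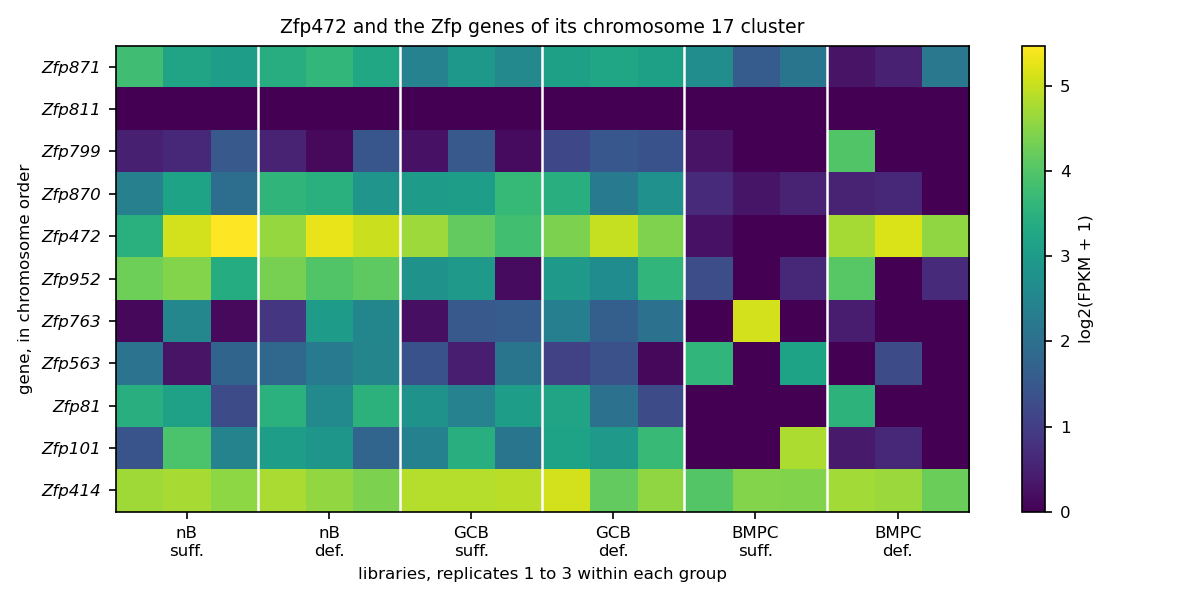
Colour gives log2(FPKM + 1) of the 11 Zfp genes of the chromosome 17 cluster around Zfp472 (rows, in chromosome order) in each of the 18 libraries (columns, grouped by cell type and genotype). In BMPC the row of Zfp472 is dark in the 3 Dnmt3-sufficient and bright in the 3 Dnmt3-deficient libraries. Zfp414 is bright in all BMPC libraries, and the other neighbours are bright in some or none of them.

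The cluster of Zfp472 holds 11 Zfp genes, 10 of them members (chromosome 17, 32908181 to 33768724, mm9). Zfp870, on 1 side of Zfp472, was at 0.602, 0.248 and 0.468 FPKM in Dnmt3-sufficient and 0.463, 0.557 and 0 FPKM in Dnmt3-deficient BMPC, below each of its nB and GCB values. Zfp952, on the other, was at 1.46, 0 and 0.530 FPKM and at 15.5, 0 and 0.566 FPKM, with overlap between genotypes. Single BMPC libraries stood out elsewhere in the cluster, with Zfp763 at 33.2 FPKM in Dnmt3-sufficient replicate 2 and Zfp101 at 27.0 FPKM in Dnmt3-sufficient replicate 3 and at most 0.555 FPKM in the other BMPC libraries. Zfp414, at the end of the cluster, stayed between 15.2 and 33.6 FPKM in every library. From nB to BMPC 4 and 3 of the 10 members were lower (40% and 30%, with Zfp472 among the 4), beside 27.6% and 30.6% of genes tested.

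Over the 18 libraries the members most like Zfp472 in log2(FPKM + 1) were Zfp317 (Pearson r = 0.80), Zfp276 (0.80), Zfp36 (0.79), Zfp956 (0.76) and Zfp120 (0.76). Each had its lowest value in a Dnmt3-sufficient BMPC library, and the BMPC libraries share a low depth. Zfp956 had no reads in Dnmt3-sufficient BMPC, and in Dnmt3-deficient BMPC it gave 11.7, 0 and 7.04 FPKM, so that the genotypes overlapped at 0. Zfp120 was at 0.109, 0 and 8.17 FPKM and at 5.86, 11.3 and 21.5 FPKM.

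To ask whether loss of Dnmt3a and Dnmt3b went with other differences in the family, the genotypes were compared within each cell type. In nB 0 members passed (7 with an unadjusted p under 0.05 by limma, 0 passed by voom), beside 0.0521% of genes tested. In GCB 0 passed (4 with an unadjusted p under 0.05, 0 by voom), beside 0% of genes tested. In BMPC, leaving out Zfp472 as preselected, 2 were higher in Dnmt3-deficient cells, beside 1.34% of genes tested, and 4 lower, beside 2.65%, both shares of the members below those of all genes. The fit over all libraries shares 1 estimate of the spread between BMPC and the less variable cell types. These calls depended on that fit. When only the 6 BMPC libraries were fitted 0 members passed (9 with an unadjusted p under 0.05), beside 0% of genes tested. That smaller fit also has fewer libraries from which to estimate the spread, and these changes cannot be told apart. With a quality weight per library no member passed, again leaving out Zfp472, beside 0.156% of genes tested. Without any 1 BMPC library the number, Zfp472 counted, was 12 to 15 in place of 7, and the share of genes tested was 5.03 to 8% in place of 3.98%.

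Zfp317, a KRAB gene on chromosome 9, was at 0.103, 0.0594 and 17.6 FPKM in Dnmt3-sufficient and 26.1, 47.2 and 69.3 FPKM in Dnmt3-deficient BMPC. The groups did not overlap, but replicate 3 of the Dnmt3-sufficient group, at 283 reads, lay just below the range of nB and GCB (18.9 to 38.2 FPKM). The log2 difference was 4.01 (SE 0.77, adjusted p = 0.00661), or 8.02-fold by the means. Zfp276 rose from 0, 0.0460 and 0.964 FPKM to 3.11, 4.77 and 11.6 FPKM (log2 difference 2.39, SE 0.49, adjusted p = 0.00931). Here too replicate 3 was the highest of the Dnmt3-sufficient group.

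Zfp954, a KRAB gene on chromosome 7, had the largest fall in Dnmt3-deficient BMPC, from 38.7, 52.1 and 27.7 FPKM to 10.8, 0 and 0 FPKM (log2 difference -4.11, SE 0.69, adjusted p = 0.00272). The Dnmt3-sufficient BMPC values overlapped those of nB (18.4 to 39.8 FPKM), while all 3 Dnmt3-deficient values lay below it. Zfp51, in another cluster of chromosome 17, fell from 13.9, 1.41 and 9.70 FPKM to 0, 0 and 0.844 FPKM (-2.57, SE 0.60, adjusted p = 0.0219), and lost the call without BMPC Dnmt3-sufficient replicate 1 or 3 and with voom (adjusted p up to 0.779 over the alternatives). Zfp367 fell from 13.1, 6.28 and 12.0 FPKM to 2.58, 0 and 3.21 FPKM (-2.16, SE 0.51, adjusted p = 0.0234) and lost the call with voom (adjusted p = 0.0810) or with a pseudocount of 0.1 (adjusted p = 0.0550). In nB, too, its Dnmt3-deficient values (3.05 to 5.60 FPKM) lay below the Dnmt3-sufficient ones (6.81 to 7.97 FPKM), without passing.

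Zfp335, known for a role in T cell maturation, fell from 7.77, 8.17 and 5.31 FPKM to 1.34, 0 and 0.676 FPKM (-2.34, SE 0.43, adjusted p = 0.00512). In nB it was at 10.005, 11.8 and 11.1 FPKM (Dnmt3-sufficient) and 19.1, 11.0 and 19.9 FPKM (Dnmt3-deficient), and the genotypes overlapped there and in GCB. Each of these calls was lost when only the 6 BMPC libraries were fitted (adjusted p between 0.717 and 0.779) and with quality weights. Beside these differences, the Dnmt3-deficient BMPC libraries held a higher sum over the plasma cell markers, mostly Jchain, and less erythroid marker RNA, as given above. The part of these marker differences in the Zfp differences was not tested.

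**Figure D5:**
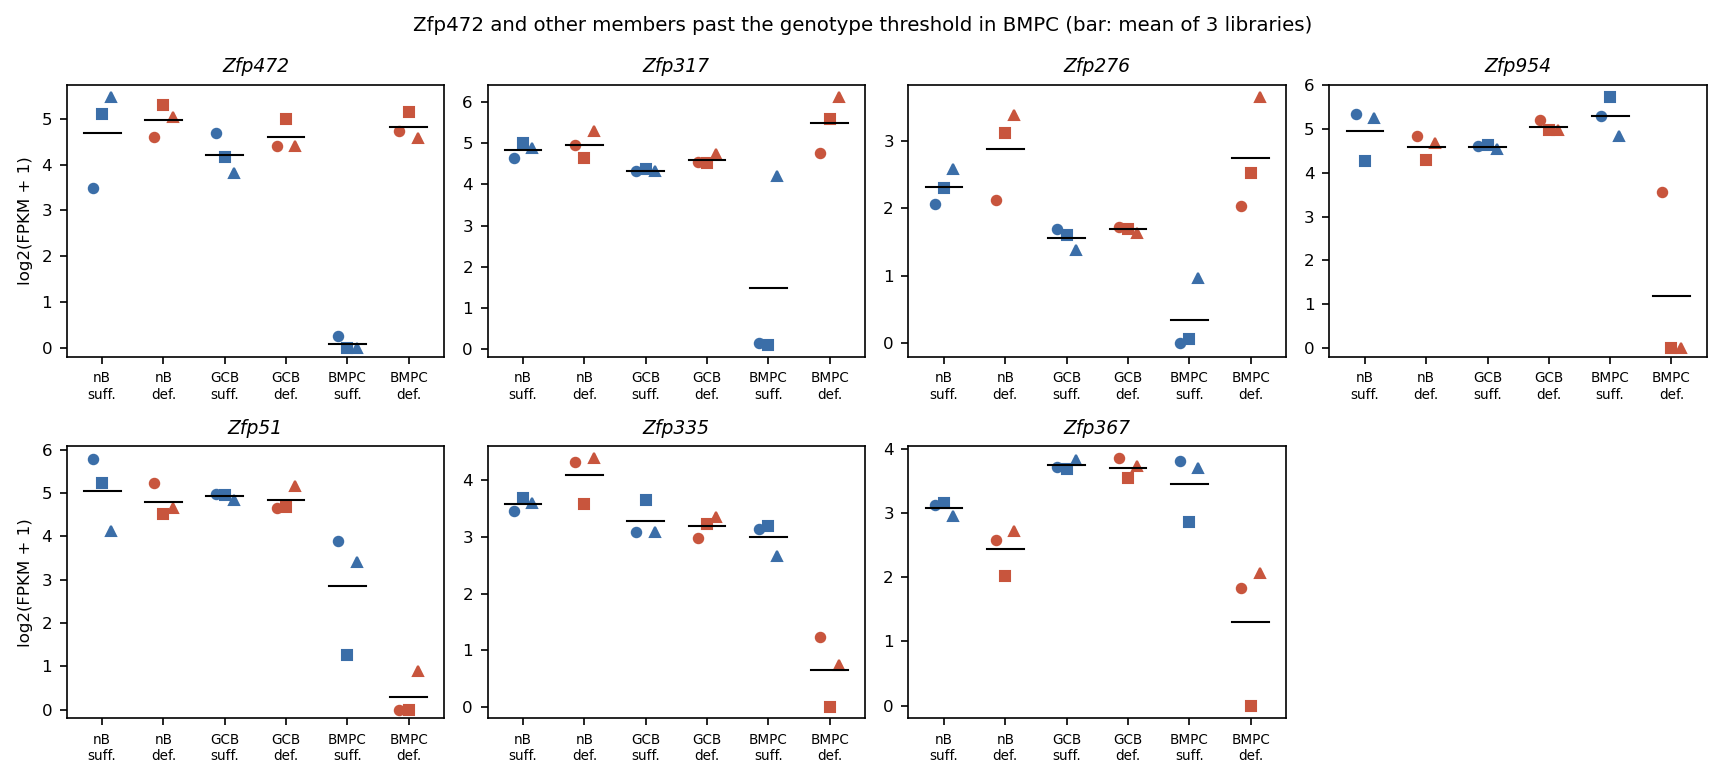
Levels of Zfp472, preselected for its difference in BMPC and not tested, and of the 6 members that passed between genotypes in BMPC are plotted per library as log2(FPKM + 1). They are split by cell type and genotype (blue, Dnmt3-sufficient, red, Dnmt3-deficient), with circles, squares and triangles for replicates 1, 2 and 3 and a bar at the group mean. Zfp472 is near 0 in all 3 Dnmt3-sufficient BMPC libraries, while in Zfp317 and Zfp276 replicate 3 of that group lies above the other 2.

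Whether the genotype difference itself changed between cell types was tested in the same fit. Between GCB and nB 0 members passed (4 with an unadjusted p under 0.05, 0 by voom), beside 0% of genes tested. Leaving out Zfp472, 1 member passed between BMPC and nB (24 with an unadjusted p under 0.05, Zfp472 counted), beside 0.555%, and 0 between BMPC and GCB (22 with an unadjusted p under 0.05, Zfp472 counted), beside 0.425%. The former was Zfp335, with a genotype difference in BMPC that was lower than that in nB by 2.86 on the log2 scale (SE 0.61, adjusted p = 0.0420). That call was lost under 10 of 20 alternatives, among them each fit without nB Dnmt3-sufficient replicate 1, 2 or 3 or without nB Dnmt3-deficient replicate 1 or 3 (adjusted p up to 0.313 over the alternatives).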

How the data were processed

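RNA was amplified with SMARTer chemistry, made into Nextera libraries and sequenced by the authors. Reads were mapped to mm9 with TopHat 2.1.1, counted over the exons of UCSC known genes with GenomicAlignments 1.6.3, and deposited by the authors as FPKM per library. Strand was not given in the sources used here, so overlapping and antisense genes, and paralogs within Zfp clusters, are uncertain. The table also held the authors' own edgeR 3.12.1 comparisons (fold changes, p-values and calls), which were not used. FPKM times exon length gave whole reads (tolerance 0.01) for 100% of values, from which depth was taken (in BMPC 1355231 to 3803197 reads per library). In BMPC 1 read in a 1 kb gene was worth 0.263 to 0.738 FPKM. Values at 0 and bounds at 3 reads cover counting error only.

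Genes above 1 FPKM in at least 2 libraries (11522) were tested on log2(FPKM + 1) with limma 3.58.1 (R 4.3.3), 1 mean per group over all 18 libraries, a trended prior, two-sided tests and Benjamini-Hochberg adjustment over those genes. Such changes understate those of low genes. The fit was tested on simulated data: of 200 genes changed 8-fold, 90% were recovered between genotypes in nB (11480 genes) and 83% in BMPC (11478 genes), while 25 and 31 other genes were called. The simulated spread was the same for every gene and cell type, and the changed genes had means above 1 FPKM in the cell type compared. The scatter of real BMPC replicates between high values and 0 was not modelled, so the BMPC figures do not describe the fit on the real BMPC libraries. Each nB and BMPC library came from 1 mouse and each GCB library from 2 pooled mice. The driver of Cre is not reported here.

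Members and gene lists were chosen with earlier results of these data known. Genes named were Zfp472, its cluster and the 5 members most correlated with it, the 10 highest members, list members, those above 1 FPKM in a single cell type, those nearest the level that defines a member, up to 8 per direction that passed between cell types in both genotypes without overlap, up to 5 per direction that passed between genotypes without overlap, and those past an interaction. The 5 members listed for the pattern opposite to Zfp472 were named after their values were seen. Coordinates and proteins came from NCBIM37 (mm9) with Gencode vM1 by symbol, 249 and 253 of 258 members matched. A finger was C, 2 to 4 residues, C, 12 residues, H, 3 to 5 residues, H. Alternatives were a pseudocount of 0.1, other filters, median of ratios scaling, only the groups compared, quality weights, voom on recovered reads, sex as a covariate and leaving out each library.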

Additional observations from a re-analysis of the deposited data

Results flagged for a closer look

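Zfp335 was the member, apart from the preselected Zfp472, that passed a test of the genotype difference between cell types in the main fit. The Dnmt3-deficient minus Dnmt3-sufficient change in BMPC minus that in nB was -2.86 on the log2 scale (adjusted p = 0.0420, limma over all 18 libraries). The call was lost under 10 of 20 alternatives. Among them were median of ratios scaling (adjusted p = 0.0514, limma), sex as a covariate (0.0526) and quality weights (0.313). In BMPC all 3 Dnmt3-deficient libraries (0 to 1.34 FPKM) lay below all 3 Dnmt3-sufficient libraries (5.31 to 8.17 FPKM), while in nB the groups overlapped (10.005 to 11.8 and 11.0 to 19.9 FPKM). The reads behind the Dnmt3-deficient BMPC values were 10, 0 and 7. Against GCB the same difference was -2.25 (adjusted p = 0.162).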

How the results depend on the processing

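Counts of members that passed, Zfp472 included, moved with the setting as follows. From nB to GCB the 13 of Dnmt3-sufficient cells became 8 with a pseudocount of 0.1, 8 with no filter, 41 with only the groups compared, 54 with quality weights and 21 with voom, and the 8 of Dnmt3-deficient cells became 3, 22 and 37 with the pseudocount, the groups compared and the weights. From nB to BMPC, 122 became 75 with the groups compared and 66 with weights, and 106 became 59 with weights. From GCB to BMPC, 56 became 89 with voom and 73 became 39 with weights. The 7 between genotypes in BMPC became 12 with the pseudocount, 0 with the groups compared and 1 with weights. For the genotype difference in BMPC minus that in nB, 2 became 1 with the pseudocount, the scaling, the groups compared or sex, 0 with weights and 5 with voom. For BMPC minus GCB, 1 became 2 with the filter at 3 libraries or with sex, 0 with weights and 4 with voom.

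Leaving out 1 library gave 7 to 12 and 3 to 9 from nB to GCB, 85 to 115 and 76 to 105 from nB to BMPC, 40 to 68 and 48 to 81 from GCB to BMPC, 12 to 15 between genotypes in BMPC, and 1 to 6 for both interactions with BMPC. The libraries that moved a count over 1.5 times were GCB Dnmt3-sufficient replicates 1, 2 and 3 (8, 7 and 8 of 13), nB Dnmt3-deficient replicate 3 and GCB Dnmt3-deficient replicates 1 and 3 (5, 3 and 4 of 8), GCB Dnmt3-deficient replicate 2 (48 of 73), every BMPC library for the genotype comparison (14, 12 and 15 for Dnmt3-sufficient, 12, 14 and 15 for Dnmt3-deficient replicates 1 to 3), and every BMPC library and all nB libraries but Dnmt3-deficient replicate 2 for the interactions. The cause was not tested. The genotype change of Zfp472 in nB ranged from -0.31 (without nB Dnmt3-sufficient replicate 1) to 0.69 (without replicate 3). Of 748 values for the 53 changes of named genes, 674 kept their side of the threshold, 73 lost it and 1, that of Zfp472 just given, changed sign. Median of ratios scaling moved the median of all genes from -0.84 to -0.69 from nB to BMPC and from -0.73 to -0.57 from GCB to BMPC in Dnmt3-deficient cells, and 1 member was then higher in BMPC than in nB.

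Same-numbered GCB samples shared only a title stem: their deviations correlated at -8.1e-05, -0.017 and 0.026, and with the stem as a replicate block 0 members passed between genotypes in GCB (19 with an unadjusted p under 0.05), as without it (21). BMPC libraries were the shallowest and had 88 to 131 members at 0 reads, but not in order of depth (109 at 3803197 reads, 91 at 1632925 reads).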
